A study of Mus musculus with 4 samples.

Results

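The 32 genes described here encode the proteins that bring glucose into a cell, break it down to pyruvate, and send that pyruvate either to lactate or into mitochondria. Members were taken by symbol from the gene lists of both libraries, and all 32 were found among 32285 listed genes. They occupy 33 entries because Aldoa has 2, ENSMUSG00000030695 and ENSMUSG00000114515, whose UMIs were summed (the latter holds 0 and 3 UMIs in the isotype and anti-CD40 libraries). The cells came from hearts of C57BL6J mice that received either an agonist antibody against CD40, a costimulatory receptor on B cells and myeloid cells, or rat IgG as isotype control. In each group 4 hearts were pooled into 1 library, so there is no replicate, no test was made, and an effect of the antibody cannot be told apart from any other difference between the 2 preparations. All hearts were perfused, freed of atria and digested with enzymes at body temperature. The sample titles name the sorted cells as CD45+DAPI- and the series design as DRAQ5+DAPI-. Dose, time and the age of the mice were not given in the sources used here. The assay was CITE-seq on a 5' droplet kit, which reads RNA and antibody tags from the same cells and counts RNA molecules as unique molecular identifiers (UMIs).

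Glycolysis traps glucose by phosphorylation, commits it at phosphofructokinase, splits it into triose phosphates and recovers ATP and NADH on the way to pyruvate. Lactate dehydrogenase turns pyruvate into lactate and restores NAD+, and monocarboxylate transporters carry the lactate out, whereas the mitochondrial pyruvate carrier feeds the tricarboxylic acid cycle unless pyruvate dehydrogenase kinases hold the next enzyme back. In macrophages and lymphocytes the pathway is known for being raised on activation, and several of its genes are textbook targets of hypoxia-inducible factor.

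Promoter sequence is shown for 4 members with contrasting behaviour in the data below: Ldha and Pgk1, which were past 1.5-fold higher in the anti-CD40 library in all 3 compared cell classes with all cells and depths (but at a log2 ratio of 0.23 for Ldha in neutrophil-like cells without mixed cells, and of -0.07 for Pgk1 in NK cell-like cells after thinning), and the isoenzymes Hk2 and Hk3, which moved in opposite directions in macrophage-like cells. Each is the 250 bases before the first listed RefSeq start on GRCm38.p6, 5' to 3' on the gene's strand, with the core letters ACGTG of the hypoxia response element in capitals on either strand.
Ldha, chr7:46845554-46845803, plus strand: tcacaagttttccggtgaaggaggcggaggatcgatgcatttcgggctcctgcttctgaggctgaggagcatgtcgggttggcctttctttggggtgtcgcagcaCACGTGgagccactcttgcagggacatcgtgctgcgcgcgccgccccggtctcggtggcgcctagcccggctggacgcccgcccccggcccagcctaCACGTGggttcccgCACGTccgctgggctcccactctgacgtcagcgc
Pgk1, chrX:106186850-106187099, plus strand: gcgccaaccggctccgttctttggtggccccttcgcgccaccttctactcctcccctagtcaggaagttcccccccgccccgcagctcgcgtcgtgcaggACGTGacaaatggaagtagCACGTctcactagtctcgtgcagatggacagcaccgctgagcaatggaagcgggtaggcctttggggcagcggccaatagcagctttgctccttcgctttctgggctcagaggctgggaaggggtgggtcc
Hk2, chr6:82774455-82774704, minus strand: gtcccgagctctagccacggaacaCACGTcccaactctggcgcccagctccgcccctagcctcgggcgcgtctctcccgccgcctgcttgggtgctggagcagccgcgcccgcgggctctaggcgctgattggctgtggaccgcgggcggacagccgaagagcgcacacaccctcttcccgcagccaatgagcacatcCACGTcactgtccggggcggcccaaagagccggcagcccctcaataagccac
Hk3, chr13:55021386-55021635, minus strand: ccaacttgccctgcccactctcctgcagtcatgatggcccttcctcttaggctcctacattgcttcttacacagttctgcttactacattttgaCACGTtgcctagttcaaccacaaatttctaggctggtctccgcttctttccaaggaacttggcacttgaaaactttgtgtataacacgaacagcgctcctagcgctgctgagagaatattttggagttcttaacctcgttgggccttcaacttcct
The Ldha window holds 5 matches, Pgk1 2, Hk2 2 and Hk3 1, where CACGTG counts as 2 overlapping matches because it reads the same on both strands. The other listed start of Ldha, not shown, has 0 matches. Promoters were matched for 31 of the 32 members, with 50 starts, and 14 of the 31 genes (45.2%) had a match before at least 1 start, against 18.5% of all 27025 genes with a promoter entry. Taken by start, a match was present at 18 of 50 member starts (36%) and at 16.6% of all 32851 starts. GCGTG, the other common form of the core, was present at 26 of 50 member starts and at 28.2% of all starts. That Hk2 was past 1.5-fold lower in macrophage-like cells depends on scaling, as described below. Whether the letters bear on the level of any member was not tested. A match of letters is a description and not a bound site.

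Cells were sorted into classes by counting how many distinct marker genes of a type each carried, so a class is a range on a marker count and not a proven cell type. Of 4908 isotype and 7087 anti-CD40 barcodes, 2558 and 4278 had at least 200 genes and at most 10% mitochondrial UMIs; their median depth was 5446 and 8284.5 UMIs. Macrophage-like cells numbered 643 and 2059 (median 7146 and 11034 UMIs), neutrophil-like cells 151 and 319 (3032 and 3071 UMIs), and NK cell-like cells 121 and 124 (4560 and 6073.5 UMIs). These were the classes with at least 50 cells in both libraries that were compared. The macrophage gate of 6 out of 10 markers had 121 and 338 cells just at the limit, before cells passing more than 1 gate were set aside, and 116 and 288 cells that fell 1 marker short. For some pairs of gates a cell passing both went to 1 of them by a fixed order, for example macrophage before monocyte. Other cells passing more than 1 gate (556 and 644), such as the NK and T cell gates, were left out. Cells passing none (450 and 749) were left out too, and no doublet caller was run. The libraries share 13 barcodes, 6 of them among the cells kept. In macrophage-like cells the summed macrophage markers stood at 15933 and 16595 counts per 1000000 UMIs (CPM), all 10 of them detected. In neutrophil-like cells the surface tag for Ly-6G had a median of 23 and 10 UMIs, and its median was 0 in macrophage-like cells of both libraries. Levels below are UMIs summed over a class as CPM, with exact Poisson 95% intervals; ratios carry exact conditional intervals, and both cover counting error only.

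Macrophage-like cells of the anti-CD40 library held more RNA of many glycolysis genes, at steps from glucose uptake and phosphofructokinase down to lactate export. The summed hexokinase and enolase steps differed little, and Pfkfb4, a regulator of phosphofructokinase, was lower. Summed over the 32 genes the level was 3062 CPM (3016 to 3109) in the isotype and 6154 CPM (6124 to 6184) in the anti-CD40 library, a 2.01-fold ratio (1.98 to 2.04). A gene was counted as higher or lower when its log2 ratio, with 10 CPM added to each side, passed 1.5-fold, and it was considered when its mean over the libraries was at least 10 CPM. By that rule 22 of the 32 members were considered: 12 were higher in the anti-CD40 library, against 6.7% of all 7957 genes considered, 2 were lower, against 11.4% of all genes, and 8 lay within the limit. The median log2 ratio of these 22 was 0.81 and that of all genes -0.11. The other 10 members, Slc2a3, Pfkm, Aldoc, Eno2, Eno3, Ldhb, Slc16a1, Pfkfb1, Pfkfb2 and Bpgm, were below 10 CPM on average. Among members of at least 100 CPM on average, 7 of 10 were higher, beside 189 of all 1462 genes at that level. TMM scaling, which moved the median gene from -0.11 to 0.11 on the log2 scale, gave 15 members higher against 13.7% of all genes and 0 lower against 5.69%, and turned the higher share of all calls from 37.0% to 70.7%; in neutrophil-like cells that share went from 38.7% to 60.6%, and in NK cell-like cells from 34.3% to 55.4%. Relative to the median gene of the class, 13 members were higher, against 8.97% of all genes, and 1, Pfkfb4, lower, against 8.27%. Without the 356 isotype and 1540 anti-CD40 macrophage-like cells that carried at least 2 markers of an unrelated type, 12 members were higher, against 7.47% of all genes, and 2 lower, against 12.8%. B cell markers summed to 257.5 and 34.2 CPM in the class and neutrophil markers to 117.9 and 283.2 CPM.

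**Figure D1:**
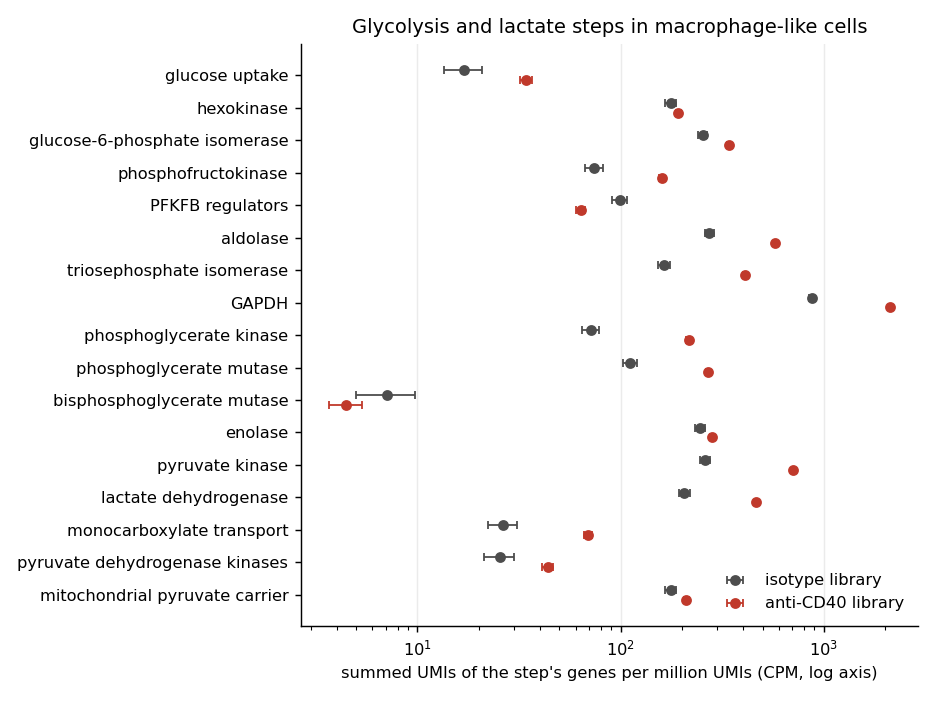
Summed level of the genes of each pathway step in macrophage-like cells, as CPM on a log axis, with exact Poisson 95% intervals; grey is the isotype and red the anti-CD40 library. GAPDH (874 and 2113 CPM) and pyruvate kinase (261 and 705 CPM) lie far apart between the libraries, hexokinase (176 and 193 CPM) nearly together, and the PFKFB regulators (99.2 and 63.7 CPM) in the opposite order.

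At the entry of glucose, Slc2a1, the widely expressed transporter GLUT1, had 65 and 860 UMIs in macrophage-like cells of the isotype and anti-CD40 libraries, or 12.1 and 32.6 CPM. The ratio was 2.70 (2.10 to 3.54). Slc2a3, the high-affinity transporter GLUT3, had 26 and 42 UMIs, or 4.82 and 1.59 CPM, and was too low to be considered. The share of uptake UMIs that came from Slc2a1 was 71.4% (61.0 to 80.4) and 95.3% (93.8 to 96.6).

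Hexokinase, which phosphorylates glucose, had nearly the same summed level in both libraries (176 and 193 CPM, ratio 1.09), yet its isoenzymes differed in direction. Hk2, the inducible isoenzyme that can dock on mitochondria, was at 124.8 CPM in the isotype and 77.6 CPM in the anti-CD40 library, 1.61-fold lower (1.47 to 1.75). Hk3, an isoenzyme of myeloid cells, had 135 and 1998 UMIs, or 25.03 and 75.7 CPM, and its ratio was 3.02 (2.54 to 3.63). Hk1, the constitutive form, was at 26.3 and 39.3 CPM, a ratio of 1.49 that stayed within the limit. Hk2 gave 70.8% (67.8 to 73.7) of hexokinase UMIs in the isotype library and 40.3% (38.9 to 41.7) in the anti-CD40 library, and Hk3 14.2% and 39.3%. The call on Hk2 depends on scaling: with TMM or median-of-ratios factors, which raise the median gene by 0.22 on the log2 scale, its log2 ratio was -0.36 with either and within the limit. After thinning each cell to 1000 UMIs, 11.9% of isotype and 8.50% of anti-CD40 macrophage-like cells held an Hk2 UMI, and 1.90% and 7.09% an Hk3 UMI; without thinning the shares were 46.2% and 49.2% for Hk2 and 16.5% and 51.4% for Hk3. In NK cell-like cells, which make little of either, the unthinned shares were 2.48% and 5.65% for Hk2 and 0.826% and 6.45% for Hk3, at median depths of 4560 and 6073.5 UMIs.

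**Figure D2:**
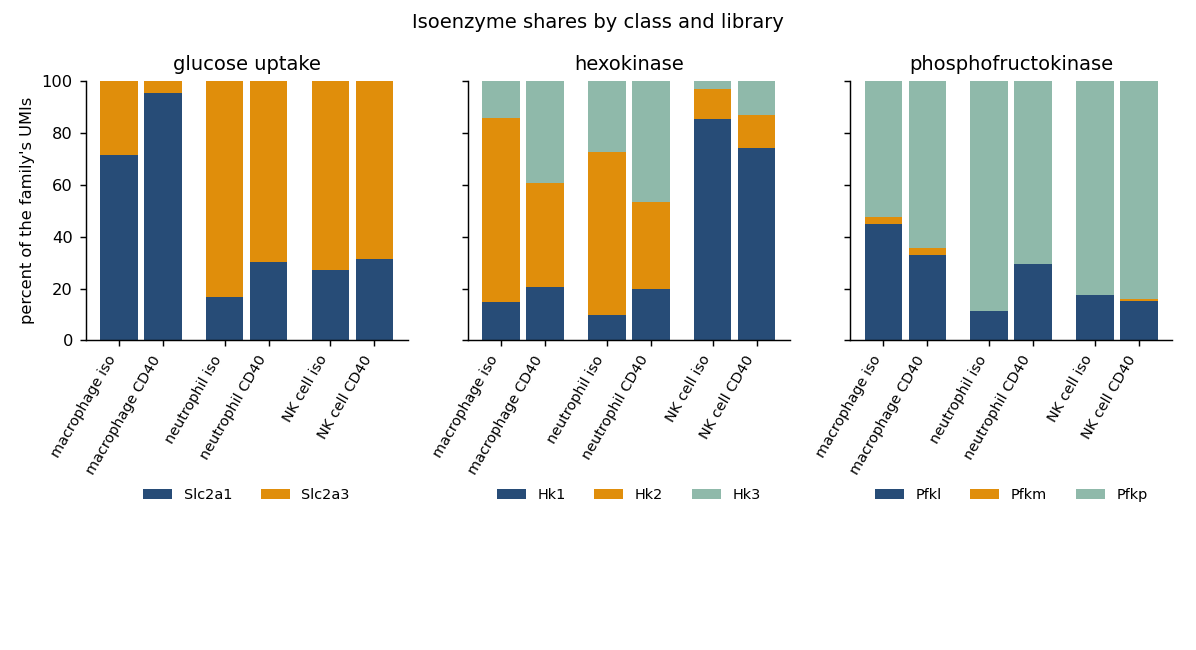
Percent of a family's UMIs that came from each gene, for glucose transporters, hexokinases and phosphofructokinases, in macrophage-like, neutrophil-like and NK cell-like cells of the isotype (iso) and anti-CD40 (CD40) libraries. The Hk3 part of the hexokinase bar is larger in the anti-CD40 library, at 39.3% against 14.2% in macrophage-like and 46.7% against 27.5% in neutrophil-like cells, where Hk2 is past the limit lower in CPM and Hk3 within it, while Hk1 makes up most of the NK cell-like bars.

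Gpi1, which turns glucose 6-phosphate into fructose 6-phosphate, was at 253.8 and 342.2 CPM, a ratio of 1.35 within the limit. Phosphofructokinase, the committing step, was at 74.2 and 159.1 CPM. Its platelet form Pfkp was 2.64-fold higher (2.29 to 3.06; 38.7 and 102.4 CPM), and its liver form Pfkl was at 33.2 and 52.5 CPM, a ratio of 1.58 that fell within the limit once the 10 CPM were added. The muscle form Pfkm had 12 and 110 UMIs. The bifunctional PFKFB enzymes set the level of fructose 2,6-bisphosphate, the activator of phosphofructokinase; 1 of the 4, Pfkfb4, was past the limit. Pfkfb4 measured 51.4 and 27.9 CPM, a 1.84-fold lower value (1.60 to 2.11), and Pfkfb3 measured 46.2 and 34.0 CPM, 1.36-fold lower and within the limit. With TMM or median-of-ratios factors the log2 ratio of Pfkfb4 was -0.47 with either, within the limit, and after thinning it was -0.22. Pfkfb1 (2 and 20 UMIs) and Pfkfb2 (7 and 26 UMIs) were near the floor.

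In the lower part of the pathway every step except enolase and the bisphosphoglycerate branch was past the limit. Aldoa, the main aldolase of most tissues, was at 271.6 and 572.3 CPM, a ratio of 2.11 (2.00 to 2.22); Aldoc had 12 and 135 UMIs. Tpi1, which interconverts the triose phosphates, was at 163.9 and 408.4 CPM. Gapdh, which yields NADH, measured 874 and 2113 CPM, a 2.42-fold higher value (2.35 to 2.49). Pgk1, the first step to yield ATP, had the largest log2 ratio of the 22 members at 1.48, with 71.2 and 216.3 CPM and a ratio of 3.04 (2.74 to 3.38). Pgam1, a mutase, was at 111.1 and 268.9 CPM.
Eno1, the enolase of most tissues, stood apart from its neighbours at 236.9 and 270.7 CPM, a ratio of 1.14 (1.08 to 1.21). Its near-identical copy Eno1b, which can take a part of the same reads, was at 15.6 and 14.1 CPM and does not alter that order. Bpgm, which makes the 2,3-bisphosphoglycerate of red cells, had 38 and 117 UMIs; 3 of 7 and 4 of 7 red cell markers had a UMI in this class.
Pkm, pyruvate kinase, measured 260.7 and 704.7 CPM, a 2.70-fold higher value (2.56 to 2.86). The spliced forms of Pkm cannot be separated in these gene counts.

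Past pyruvate, RNA of Ldha and of the exporter Slc16a3 was higher, and RNA of the mitochondrial pyruvate carrier was close to level. The summed pyruvate dehydrogenase kinases were at 25.4 and 43.7 CPM, a ratio of 1.72 (1.44 to 2.07). Ldha, the lactate dehydrogenase subunit of glycolytic tissues, measured 199.9 and 459.1 CPM, a 2.30-fold higher value (2.16 to 2.45). Ldhb, the heart-type subunit, had 33 and 151 UMIs (6.12 and 5.72 CPM). Slc16a3, the lactate exporter MCT4, measured 24.8 and 67.5 CPM, a 2.71-fold higher value (2.28 to 3.26), and Slc16a1, its relative MCT1, had 8 and 46 UMIs. Mpc1 and Mpc2, the subunits of the mitochondrial pyruvate carrier, had ratios of 1.27 and 1.12. Of the kinases that switch off pyruvate dehydrogenase, Pdk3 measured 8.71 and 19.9 CPM, a 2.29-fold higher value (1.69 to 3.15), although its log2 ratio after thinning was 0.46 and within the limit, and Pdk1 measured 16.7 and 23.8 CPM, a ratio of 1.42 within it.

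The level of the 32 genes was higher in deeper cells of both libraries. In isotype macrophage-like cells the summed level was 1989 CPM in cells under 5000 UMIs, 2463 CPM from 5000 to 10000, 3268 CPM from 10000 to 20000 and 4621 CPM in cells of 20000 UMIs or more. The anti-CD40 cells of the same depths stood at 3286, 4338, 6111 and 7365 CPM. Within a depth range the ratio was 1.65, 1.76, 1.87 and 1.59, against 2.01 over the whole class; the anti-CD40 class had 349 of 2059 cells at 20000 UMIs or more and the isotype class 33 of 643. For Gapdh the ratios by depth were 2.07, 2.27, 2.37 and 1.62. Genes that respond to tissue dissociation summed to 10990 CPM in isotype and 4262 CPM in anti-CD40 macrophage-like cells. Among cells with like levels of those genes the ratio of the 32 members was 2.23, 1.73, 2.22 and 1.72 from the lowest to the highest range.

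**Figure D3:**
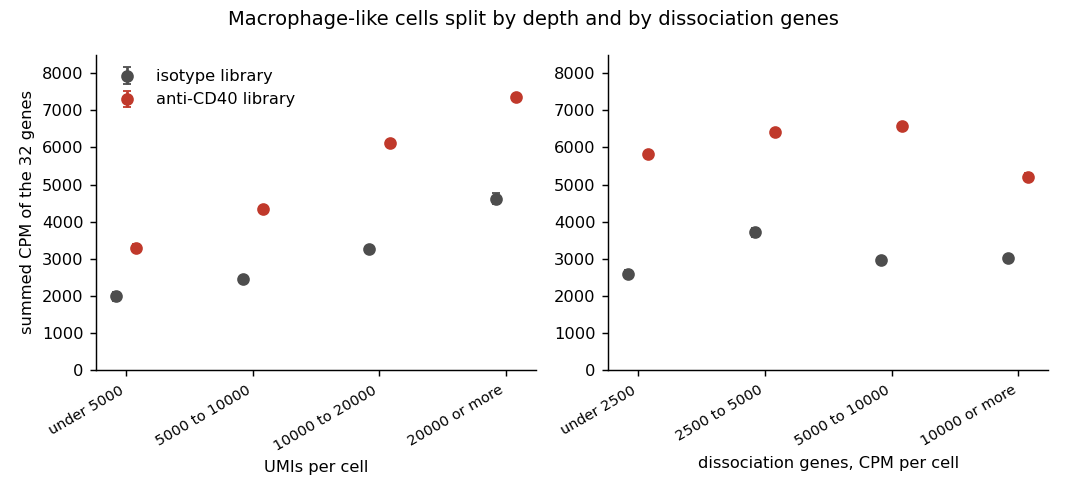
Summed CPM of the 32 genes in macrophage-like cells, split by UMIs per cell (left) and by CPM of dissociation genes per cell (right), with exact Poisson 95% intervals, mostly smaller than the points. The anti-CD40 points lie above the isotype points in all 4 ranges of each panel, and in the left panel both series climb with depth.

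The macrophage-like class mixes cells with and without the resident markers Timd4, Lyve1 and Folr2 and with and without Ccr2, a receptor of recruited monocytes. Cells with Ccr2 and no resident marker made up 14.6% of the class in the isotype and 35.4% in the anti-CD40 library. These groups rest on detecting a UMI in cells of unequal depth (median 7146 and 11034 UMIs). The Ccr2 level of the class was 283.5 and 312.5 CPM, and the 3 resident markers summed to 808.0 and 355.3 CPM. The part of depth and of these levels in the shares was not tested. Within cells with Ccr2 and no resident marker the 32 genes summed to 4307 and 6998 CPM, and 14 members were higher (background 6.44%). In cells with a resident marker and no Ccr2 they summed to 2560 and 4878 CPM, and 11 members were higher (background 7.18%). Cells with both gave 3827 and 6510 CPM with 12 higher (background 8.49%), and cells with neither 2367 and 5194 CPM with 14 higher (background 9.61%). Hk3 was higher in all 4 groups, with ratios of 2.89 in cells with resident markers alone, 2.88 in those with Ccr2 alone, 3.20 with both and 4.49 with neither. Eno1 had ratios of 1.15, 0.817, 0.961 and 1.33 in the same order. Cells with at least 3 of 12 cell cycle markers made up 4.35% and 23.2% of the class; among the others the level was 2963 and 6143 CPM, and 12 members were higher (background 6.57%) and 1, Pfkfb4, lower (background 11.7%), Hk2 then having a log2 ratio of -0.56.

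Neutrophil-like cells of the anti-CD40 library had more RNA of several middle and lower steps, Gapdh and Pgk1 among them, but less of the glucose transporter Slc2a3, of Hk2, of the lactate exporter Slc16a3 and of Mpc1. Summed over the 32 genes the level was 4408 CPM (4219 to 4603) and 6036 CPM (5902 to 6172), a ratio of 1.37 (1.30 to 1.44). Of 22 members considered, 8 were higher (36.4%), against 15.1% of all 6378 genes, and 4 were lower (18.2%), against 23.9%. The lower count is therefore not above the share of all genes. The median log2 ratio of the 22 was 0.25 and that of all genes -0.16. The 4 lower were Slc2a3, at 370.9 and 181.5 CPM (172 and 232 UMIs, 2.04-fold lower), Hk2, at 191.9 and 64.2 CPM (2.99-fold lower, 2.19 to 4.09), Slc16a3, at 450.7 and 251.1 CPM (209 and 321 UMIs, 1.79-fold lower), and Mpc1, at 252.3 and 93.1 CPM (2.71-fold lower, 2.08 to 3.53). Gapdh, at 722 and 1917 CPM, was 2.65-fold higher (2.37 to 2.98), and Pgk1, at 86.3 and 230.8 CPM, a 2.68-fold higher value (1.92 to 3.82). Pkm (ratio 1.74), Gpi1 (1.56), Tpi1 (2.03) and Ldha (1.70) were also past the limit, as were Pfkl on 5 and 32 UMIs and Pdk3 on 1 and 38 UMIs. Eno1 again lay within it, at 179.0 and 212.0 CPM. Hk3 lay within the limit here, at 84.1 and 89.97 CPM (ratio 1.07, 0.738 to 1.58), so that its larger share of hexokinase UMIs goes with the lower Hk2.

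The neutrophil-like counts rest on few and partly mixed cells. Of these cells 77 of 151 and 258 of 319 carried at least 2 markers of an unrelated type. Without them (74 and 61 cells) 4 members were higher and 6 lower, against 14.7% and 38.1% of all genes. Counts this small do not stand apart from those shares. Tpi1 then had a log2 ratio of -0.13 and Ldha of 0.23, while Gapdh remained higher at 0.88 and Hk2, Slc2a3, Slc16a3 and Mpc1 remained lower. The C1q genes, which neutrophils lack, stood at 3.42% and 8.02% of their macrophage-like level; macrophage RNA at that share would supply 4.14% and 8.84% of the Gapdh level here. Summed macrophage markers were 772 and 1548 CPM, all 10 detected in both libraries, classical monocyte markers 2644 and 7903 CPM, all 8 detected in both, cell cycle genes 25.9 and 362.2 CPM, and dissociation genes 30745 and 14392 CPM. The part of the monocyte, cycle and dissociation lists in these differences was not tested.

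NK cell-like cells of the anti-CD40 library had more RNA of Gapdh, Aldoa and 6 other members, from Gpi1 to Slc16a3. Their 32-gene sum was 2710 CPM (2576 to 2849) and 5247 CPM (5099 to 5399), a ratio of 1.94 (1.83 to 2.05). Of 19 members considered, 8 were higher, against 9.88% of all 7765 genes, and 1 was lower, against 18.9%, with a median log2 ratio of 0.45 beside -0.13 for all genes. Gapdh, at 523 and 1528 CPM, was 2.92-fold higher (2.58 to 3.32), and Aldoa, at 197.1 and 526.5 CPM, a 2.67-fold higher value (2.17 to 3.31). Pgam1 (ratio 2.42), Pkm (2.22), Pgk1 (1.99), Gpi1 (1.95) and Ldha (1.80) were past the limit too, and Slc16a3 on 2 and 19 UMIs. The lower gene was Bpgm, on 13 and 7 UMIs. Eno1 had a ratio of 1.30 and Tpi1 of 1.39, both within the limit. Hk2 and Hk3, with 4 and 1 UMIs in the isotype and 10 each in the anti-CD40 library, were below the level considered. After thinning to 1000 UMIs the log2 ratio of Pgk1 here was -0.07. Cell cycle genes stood at 123.2 and 1406 CPM in these cells, and 21 of 124 anti-CD40 cells but 0 of 121 isotype cells had at least 3 cycle markers; 0 of 121 allows a share of up to 2.48%. Without such cells 8 members were higher, against 8.19% of all genes, and 2 lower, against 20.7%. At least 2 markers of an unrelated type were carried by 66 of 121 and 111 of 124 NK cell-like cells, and too few were left without them (55 and 13) to compare. Macrophage markers summed to 285.1 and 524.3 CPM in this class, neutrophil markers to 246.4 and 503.3 CPM and dissociation genes to 6136 and 3230 CPM. C1q genes stood at 1.53% and 3.13% of their macrophage-like level, and macrophage RNA at that share would supply 2.56% and 4.33% of the Gapdh level here. The part of the other lists in these differences was not tested.

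**Figure D4:**
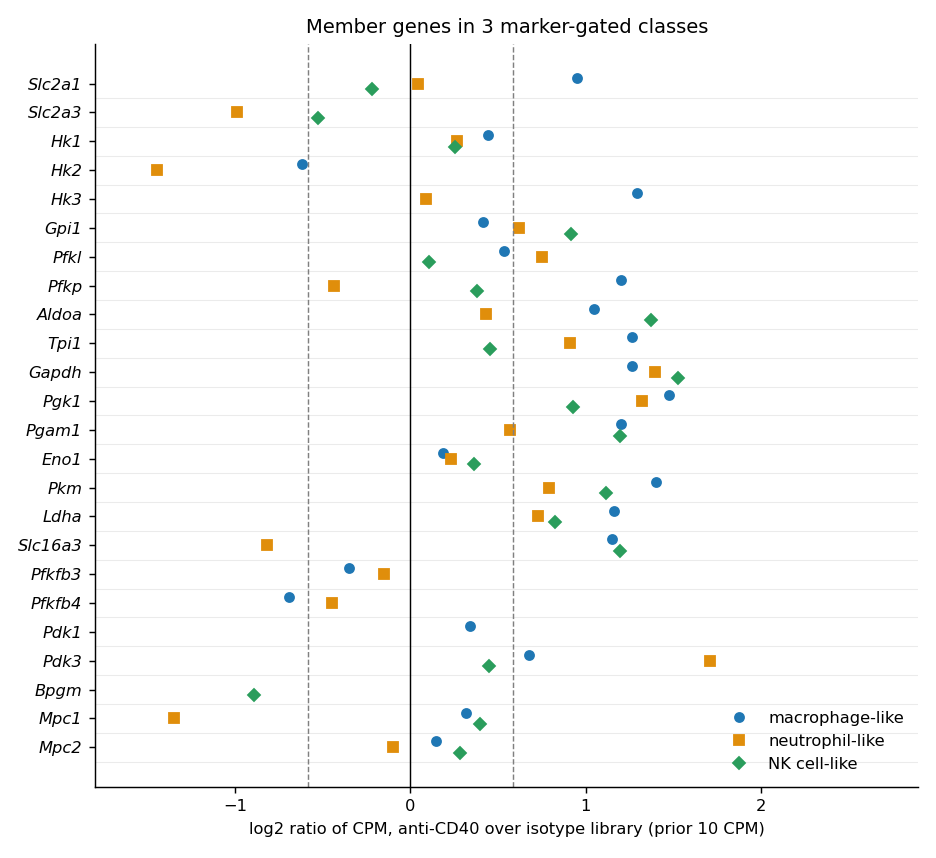
Log2 ratio of CPM between the anti-CD40 and isotype libraries, with 10 CPM added to each side, for each member with a mean of at least 10 CPM in macrophage-like (circles), neutrophil-like (squares) and NK cell-like cells (diamonds); dashed lines mark 1.5-fold. Gapdh, Pgk1, Pkm and Ldha lie past the right line in all 3 classes, Eno1 lies between the lines in all 3, and Slc16a3 lies past the right line in macrophage-like and NK cell-like cells and past the left line in neutrophil-like cells.

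The classes with fewer than 50 cells in a library are given side by side, without calls. T cell-like cells (35 and 156 cells) had 2417 and 7064 CPM of the 32 genes, classical monocyte-like cells (45 and 36) 4022 and 7746 CPM, nonclassical monocyte-like cells (51 and 43) 4047 and 6687 CPM, dendritic cell-like cells (35 and 11) 4272 and 7419 CPM, and B cell-like cells (395 and 12) 2063 and 2764 CPM. In T cell-like cells the cell cycle genes summed to 78.8 and 2078 CPM and macrophage markers to 315.3 and 1123 CPM, and 145 of the 156 anti-CD40 cells carried at least 2 unrelated markers; their part was not tested. Fibroblast-like cells (39 and 51) had 2479 and 2228 CPM, so that here the anti-CD40 value was not the larger one, and endothelial-like cells (36 and 62) 2124 and 3038 CPM. Hk2 was the lower and Hk3 the higher in the anti-CD40 library in both monocyte-like classes as well, at 224.5 and 93.1 CPM for Hk2 and 26.2 and 106.7 CPM for Hk3 in the classical one. The fibroblast-like and endothelial-like cells came through a sort that the sample titles label CD45+DAPI- and the series design DRAQ5+DAPI-.

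Some members differed widely in level between classes. Eno3, the muscle enolase, was at 192.5 CPM (75 UMIs in 27 cells) and 184.9 CPM (47 UMIs in 16 cells) in nonclassical monocyte-like cells, and between 0 and 40.5 CPM in every other class of either library. Ldhb was at 43.5 and 40.0 CPM in fibroblast-like cells, and Slc2a3 at 370.9 and 181.5 CPM in neutrophil-like cells against 80.9 and 53.0 CPM in NK cell-like and 4.82 and 1.59 CPM in macrophage-like cells. Pfkfb3 drives glycolysis in endothelium during vessel growth. It had 2 UMIs in 2 of 36 isotype and 158 UMIs in 40 of 62 anti-CD40 endothelial-like cells. The levels were 11.2 CPM (1.35 to 40.4) and 419.6 CPM (356.8 to 490.4). At least 2 markers of an unrelated type were carried by 24 of the 36 and 58 of the 62 cells. C1q genes stood there at 0.910% and 3.78% of their macrophage-like level, and cardiomyocyte markers at 285.0 and 568.4 CPM. The part of these signals was not tested. In NK cell-like cells Pfkfb3 had 4 UMIs in 121 and 7 UMIs in 124 cells. Their median depth was 4560 and 6073.5 UMIs, beside 3828 and 4126.5 UMIs in endothelial-like cells. Mature dendritic cell-like cells, of which the anti-CD40 library had 12, held 28 Pfkfb3 UMIs (226.9 CPM).

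Per cell, the ranges of the libraries overlapped in every class with cells in both. The median cell held 22.6 UMIs of the 32 genes per 10000 UMIs in the isotype and 48.2 in the anti-CD40 macrophage-like class, and the middle 90% ran from 8.21 to 52.4 and from 17.4 to 108.4. The median was 40.2 and 52.4 in neutrophil-like, 25.1 and 39.8 in NK cell-like, and 22.7 and 22.1 in fibroblast-like cells.

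**Figure D5:**
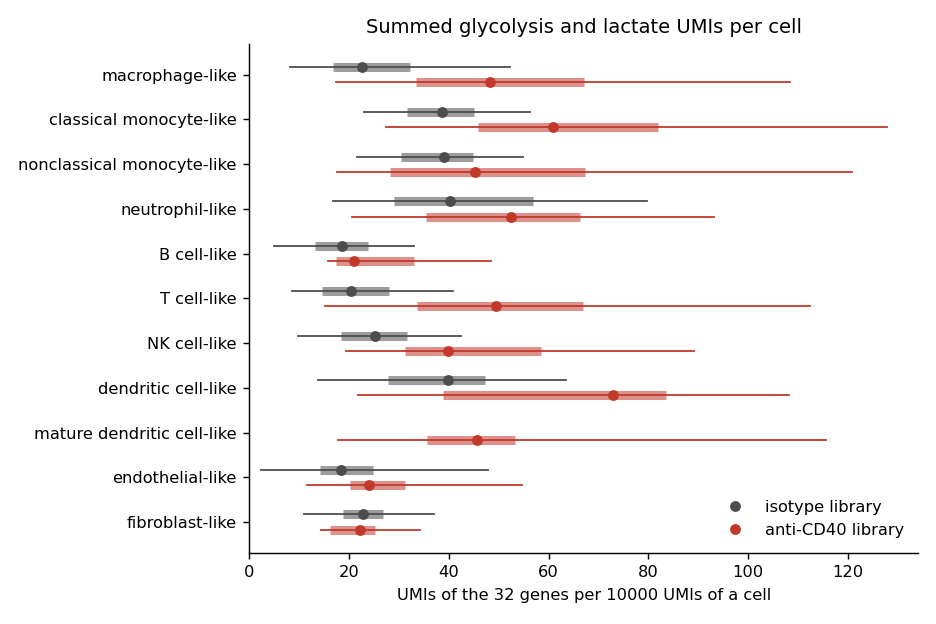
UMIs of the 32 genes per 10000 UMIs of a cell, for cells of at least 1000 UMIs, by class and library; points are medians, thick bars the middle 50% and thin lines the middle 90% of cells. The macrophage-like bars separate (medians 22.6 and 48.2) while their thin lines overlap, and the fibroblast-like medians coincide (22.7 and 22.1).

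In the neighbouring pathways of macrophage-like cells, counts past the limit are given beside 6.7% of all genes higher and 11.4% lower, and with lists this short a count of 0 to 2 is near that background. None of 9 pentose phosphate genes considered passed the limit (median log2 ratio 0.21; Tkt at 209.1 and 310.0 CPM was the highest and Taldo1, at 203.9 and 280.0 CPM, next, with Prps2 and Rpia lowest). None of 5 pyruvate dehydrogenase genes did (median 0.09; Pdhb, an E1 subunit, lowest at 58.4 and 45.3 CPM), nor any of 6 NADH shuttle genes (median 0.34; Got2 and Gpd2 highest, Got1 and Slc25a11 lowest). Of 16 tricarboxylic acid cycle genes 1 was higher, Suclg1, at 35.8 and 68.3 CPM (median 0.26; Sdhb next, Suclg2 and Idh3g lowest), and of 8 glycogen and gluconeogenesis genes 1, Pgm1, at 7.23 and 16.1 CPM (median -0.14; Pygl next, Pck2 and Pygb lowest). Among 6 further isoenzymes and transporters the lysosomal glucose transporter gene Slc2a6 was 4.66-fold higher (3.55 to 6.24; 10.0 and 46.7 CPM), and Slc16a7, the transporter MCT2, was 2.82-fold lower (2.32 to 3.41; 31.7 and 11.3 CPM), with Minpp1 and Slc2a8 next and both within the limit.
Of 14 genes for hypoxia-inducible factor and its targets outside glycolysis, 1 was higher and 2 lower (median 0.13). Higd1a, a mitochondrial target, was at 49.1 and 94.2 CPM, Hif1a itself at 51.5 and 80.4 CPM and within the limit, and the lower genes were Mxi1 (40.2 and 15.5 CPM), a Myc antagonist, and Arnt (38.2 and 21.6 CPM), the partner of Hif1a. Of 12 mTOR and Myc inputs none was higher and 2 were lower (median -0.30): Txnip, which restrains glucose uptake, at 573.8 and 267.3 CPM, a 2.15-fold lower value (2.06 to 2.24), and Tsc1, an mTOR inhibitor, at 25.6 and 13.5 CPM; Rheb and Mtor were the highest of the list and within the limit.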

How the data were processed

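The gene matrices of UMI counts, 1 per library, were used as deposited; per the file headers they came from Cell Ranger 6.0.1. The submitters' processing notes name Cell Ranger 3 and Seurat 3 and the builds mm10 and GRCh38; alignment settings were not given in the sources used here. Barcodes with at least 200 genes and at most 10% mitochondrial UMIs were kept. Classes came from lists of marker genes: 6 of 10 markers for macrophages, 5 of 15 for neutrophils and 4 of 11 for NK cells. Cells passing more than 1 gate were set aside unless a fixed order of gates placed them. Those minimums were set after the marker distributions had been seen, on marker genes alone. The members, markers and pathway lists were chosen with earlier results of these data known. Text names all 32 members and, per pathway list, the 2 highest and 2 lowest log2 ratios in macrophage-like cells. For the pyruvate dehydrogenase list it names the lowest only. Ero1a of the hypoxia list is listed in the files as Ero1l. UMIs were summed per class and library and divided by the class total. No test was made, since each group is 1 library. Poisson, conditional binomial and Clopper-Pearson intervals at 95% used scipy 1.17.1 in Python 3.11.15 with numpy 2.4.6 and pandas 2.3.3; edgeR 4.0.16 in R 4.3.3 gave scaling factors only. Counting was tested on simulated data. Antibody tag counts served to check gates. Class totals ran from 463718 to 26391235 UMIs among the compared classes, and UMIs correct for copies made by amplification but not for RNA lost before capture. Alternatives changed the gates, cell filters, depth, scaling, weighting, prior and minimum level; subtraction of a macrophage profile at the C1q share was added after the data had been seen. Promoter sequences are from RefSeq on GRCm38.p6; Slc2a3 had no entry.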

Additional observations from a re-analysis of the deposited data

Results flagged for a closer look

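Slc16a3, the gene of the lactate exporter MCT4, differed in direction between classes. Its log2 ratio between the anti-CD40 and isotype libraries exceeded that of neutrophil-like cells by 1.97 in macrophage-like cells and by 2.02 in NK cell-like cells, the latter on 2 and 19 UMIs. The class values were 1.15 in macrophage-like, 1.20 in NK cell-like and -0.82 in neutrophil-like cells. The difference was not tested, because each group is 1 library. Macrophage RNA at the C1q share would supply 0.189% and 2.16% of the Slc16a3 level in neutrophil-like cells, and 10.8% and 10.1% in NK cell-like cells.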

How the results depend on the processing

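Of 80 counts of members recomputed under alternatives, 67 stayed within 1.5 times the value reported and 13 did not. In macrophage-like cells the number lower, 2, became 1 with no mitochondrial limit, after thinning to 1000 UMIs, with the mean of per-cell CPM or without cycling cells, and 0 with TMM or median-of-ratios scaling. In neutrophil-like cells the number higher, 8, became 4 without cells carrying unrelated markers. In NK cell-like cells the number lower, 1, became 2 with 1 fewer marker required, with 500 genes and 5% mitochondrial UMIs, after thinning, with a prior of 1 CPM or without cycling cells, and 0 with a minimum of 30 CPM. Of 841 recomputed log2 ratios, 748 were classed as the same, 91 as moved and 2 as reversed. A reversal, meaning a change of sign, was counted only for members past 1.5-fold. The 2 were Tpi1 in neutrophil-like cells (-0.13 without cells carrying unrelated markers) and Pgk1 in NK cell-like cells (-0.068 after thinning). Changes of sign among members within the limit were not counted. Of the members past 1.5-fold, 11 of 14 in macrophage-like, 7 of 12 in neutrophil-like and 5 of 9 in NK cell-like cells were past it under every alternative run. The cause of these shifts was not tested. NK cell-like cells without unrelated markers (55 and 13) were too few to compare. No paired analysis was possible because each group is 1 library. Thinning left out the cells under 1000 UMIs, which were 20 and 18 neutrophil-like and 5 and 2 NK cell-like cells. The median depth of the whole neutrophil-like class was 3032 and 3071 UMIs.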

Other observations

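Outside macrophage-like cells the neighbouring pathway lists gave the following counts, with no test. In neutrophil-like cells 5 of 15 tricarboxylic acid cycle genes and 3 of 6 NADH shuttle genes considered were higher in the anti-CD40 library and none lower, against 15.1% of all genes higher. Of 17 genes of the hypoxia-inducible factor list, 0 were higher and 4 lower there, and of 8 mTOR and Myc inputs 0 were higher and 3 lower, against 23.9% of all genes lower. In NK cell-like cells 0 of 16 tricarboxylic acid cycle genes were higher, against 9.88% of all genes, and 2 lower, against 18.9%; 5 of 12 mTOR and Myc inputs were lower.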
